A study of Homo sapiens with 6 samples.

Results

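The 10 genes PRRX1, FAP, TWIST1, TWIST2, SNAI2, ZEB1, ZEB2, THY1, CDH2 and PDGFRB are mesenchymal markers and transcription factors of the epithelial to mesenchymal transition (EMT). They were chosen by name, and all 10 were found among the 13008 genes of the authors' comparison table and among the 13153 genes tested here. PolyA RNA was sequenced in 6 libraries of Tet-FLAG-FOXM1c-hTERT-RPE1 cells, a line of retinal pigment epithelial cells immortalised with telomerase whose name gives a tetracycline-controlled, FLAG-tagged FOXM1c. FOXM1 is a forkhead transcription factor best known for activating genes of late cell cycle phases. The dox group (n = 3, genotype label FOXM1 overexpression) was treated with doxycycline at 1 µg/mL, repeated at intervals of 24 h over 48 h. The no dox group (n = 3, genotype label WT, treatment label none) has the same cell line label, so by that label both groups share the immortalisation and the transgene. Whether the line is 1 clone is not stated in the labels. RPE1 cells lacking the transgene but treated with the drug were not analysed here, so effects of the drug and of FOXM1 cannot be told apart.

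During EMT, epithelial cells loosen their junctions, lose polarity and become motile. The zinc finger factors SNAI2, ZEB1 and ZEB2 and the basic helix-loop-helix factors TWIST1 and TWIST2 drive this programme, in part by binding E-box sequences and repressing epithelial genes, and the homeodomain factor PRRX1 is a further inducer. In the retinal pigment epithelium, EMT is known from wound responses in which pigment epithelial cells become fibroblast-like.

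Promoter sequences are shown for the 3 genes with an entry in the RefSeq promoter table of GRCh38.p14 among the 5 that passed limma with the replicate number as a block. Each is the 250 bases before the annotated start, on the gene's own strand. PRRX1 covers chr1:170663881-170664130 on the plus strand, ZEB1 chr10:31318167-31318416 on the plus strand and ZEB2 chr2:144520120-144520369 on the minus strand. Capitals mark matches to any of 4 motifs searched on both strands, namely the forkhead core GTAAACA, the E-box CACCTG that SNAI and ZEB proteins bind, and the E-boxes CATATG and CAGATG of TWIST proteins.
PRRX1: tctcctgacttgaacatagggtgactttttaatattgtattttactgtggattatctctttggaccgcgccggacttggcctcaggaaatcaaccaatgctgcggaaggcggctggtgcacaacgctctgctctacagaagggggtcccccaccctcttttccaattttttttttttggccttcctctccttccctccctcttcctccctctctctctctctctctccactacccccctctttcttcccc
ZEB1: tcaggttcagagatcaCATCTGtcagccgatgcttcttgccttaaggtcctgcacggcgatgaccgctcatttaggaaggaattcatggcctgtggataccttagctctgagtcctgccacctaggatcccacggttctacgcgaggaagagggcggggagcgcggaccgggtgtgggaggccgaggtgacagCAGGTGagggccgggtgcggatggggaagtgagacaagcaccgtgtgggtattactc
ZEB2: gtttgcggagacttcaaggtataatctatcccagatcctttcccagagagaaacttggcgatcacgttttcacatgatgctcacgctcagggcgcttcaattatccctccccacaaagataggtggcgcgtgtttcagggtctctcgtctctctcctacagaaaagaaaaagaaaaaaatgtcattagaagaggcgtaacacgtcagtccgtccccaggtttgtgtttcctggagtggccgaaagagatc
Of these 3 sequences ZEB1 holds matches and the others hold none. CACCTG lies on the opposite strand, written CAGGTG, at position -57 from the start, and CAGATG lies likewise, written CATCTG, at -234. In windows of 300 bases (250 before to 50 after the start) 6 of the 10 genes had an entry, 1 of these held CACCTG and 1 held CAGATG, both being ZEB1, and 0 held GTAAACA or CATATG. Among 27305 promoters of that length 20.6% held CACCTG, 14.8% CAGATG, 3.41% GTAAACA and 3.05% CATATG. A match is a description of letters and not a binding site, and no match says only that these letters are not in the window.

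FOXM1 was measured first as a check of the labels. It had 65289, 66830 and 74976 normalised counts in dox replicates 1, 2 and 3, against 5009, 4383 and 4292 in no dox replicates 1, 2 and 3, which is 15.1-fold higher (limma adjusted p = 4.49e-06). Library totals lay between 15094498 and 49882123 reads. Nothing in the labels says that replicates were separate cultures, so the p-values rest on a spread that may be technical. Same-numbered dox and no dox libraries deviated from their group means together across all genes, and the replicate number was therefore also fitted as a block. Not every defining marker of the labelled epithelial cell type was present. CDH1 was at most 0.0106 FPKM (CPM per kilobase of gene width) and EPCAM was listed at 0 in all 6 libraries, whereas KRT18, a keratin of simple epithelia, was at 42.1 to 65.2 FPKM in dox and 34.6 to 50.4 FPKM in no dox libraries. KRT18 and its partner KRT8 had higher FPKM in dox in each pair, and no test of them is given here. Over all tested genes 55.0% moved in 1 direction in all 3 pairs of normalised counts. The 6 epithelial markers, 4 of them below 0.1 FPKM in all libraries, summed to 68.0 to 98.7 FPKM in dox and 54.6 to 77.6 FPKM in no dox libraries, and their part in the results was not tested. Among 12 pigment epithelium markers MITF (2.06 to 2.23 FPKM) and OTX2 (1.91 to 3.14 FPKM) were the 2 above 1 FPKM in every library, and 7 were below 0.1 FPKM in all. These 12 summed to 5.05 to 6.10 FPKM in dox and 5.06 to 6.13 FPKM in no dox libraries. All 5 leukocyte markers were below 0.1 FPKM in all libraries. Of 4 neuron markers MAP2 exceeded 1 FPKM in every library (1.47 to 2.73 FPKM) and 2 were below 0.1 FPKM in all. Of 5 pericyte and smooth muscle markers RGS5, CSPG4 and ACTA2 exceeded 1 FPKM in every library, while MYH11 (at most 0.0202 FPKM) and DES (at most 0.0864 FPKM) were below 0.1 FPKM in all. These 5 summed to 33.8 to 67.3 FPKM in dox and 35.2 to 77.6 FPKM in no dox libraries, and their part in the results was not tested.

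The 10 genes were expressed in both groups, and most calls of small differences between dox and no dox depended on the replicate block. With the replicate block limma called 5 of the 10, where 22.5% of all tested genes were called. In limma each gene's variance is drawn toward a value for its expression level, from a trend fitted over all genes. The median SE of all tested genes was 0.12 without and 0.06 with the block. PRRX1, FAP, ZEB1 and THY1 fell (4 of 10, against 12.4% of all genes) and ZEB2 rose (1 of 10, against 10.2%). For PRRX1, FAP and ZEB1 same-numbered libraries mostly deviated in opposite directions. Their calls with the block thus lean on the variance shared over genes. Without the block limma called 0 of the 10 at an adjusted p under 0.05 and 0.540% of all genes. PRRX1, FAP, ZEB1 and ZEB2 then had an unadjusted p under 0.05 (4 of 10, against 13.0%). Without the block edgeR on recovered reads called 0 of the 10 (0.515% of all genes) and DESeq2 called 2, PRRX1 and FAP (3.98%). With the block edgeR called 6 (23.5%) and DESeq2 called 5 (13.4%). The median log2 change of the 10 genes was -0.04, beside -0.00 over all tested genes, and their median absolute change was 0.26, beside 0.12. The groups did not overlap for PRRX1, FAP, ZEB1 and ZEB2 (4 of 10, against 19.1% of all genes). All 3 pairs of equal replicate number moved in 1 direction for 7 of the 10 and for 55.0% of all genes. These genes were chosen with earlier results of the data known, and no test was made over them as a list.

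**Figure D1:**
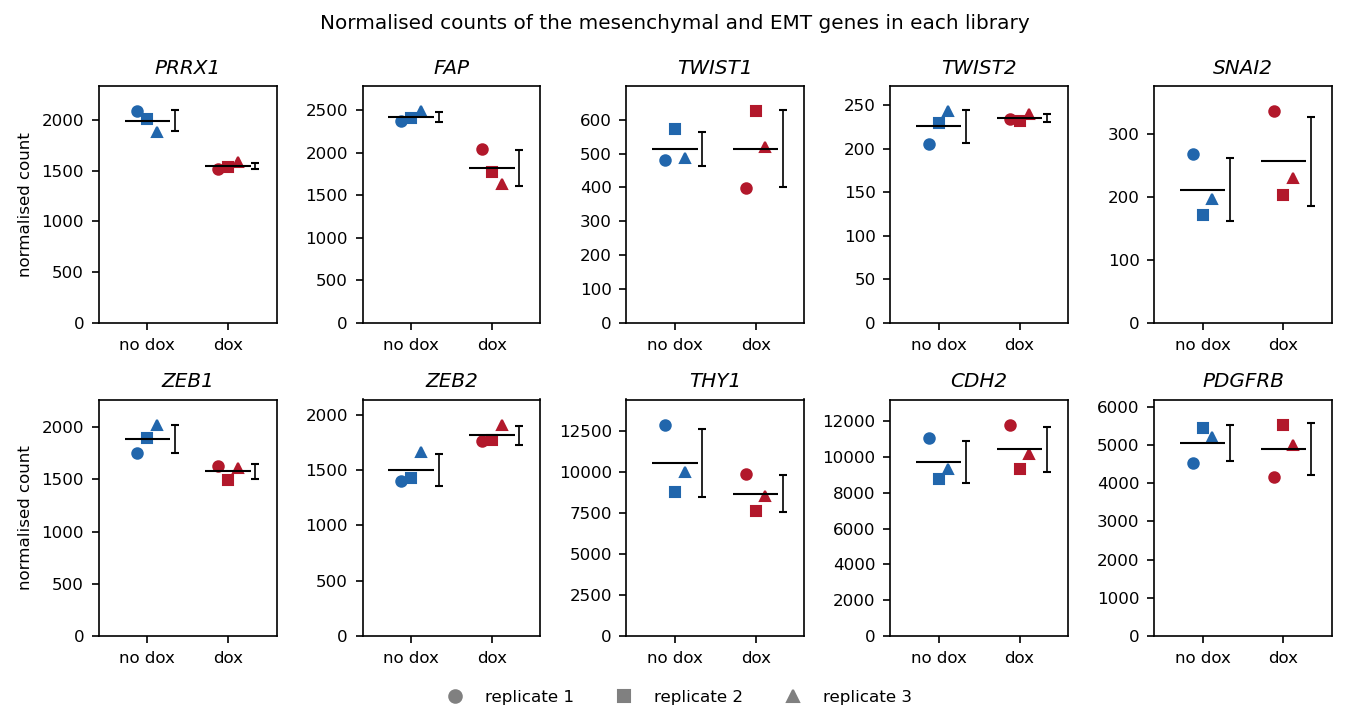
Normalised counts (vertical axes, from 0) of the 10 genes in each of the 6 libraries, no dox in blue and dox in red, with marker shape for the replicate number, a line at the group mean and a bar of 1 SD to either side (n = 3 each). PRRX1, FAP and ZEB1 lie lower in every dox library than in any no dox library, and ZEB2 lies higher.

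Among the transcription factors PRRX1 was lower in every dox library. PRRX1, a paired-related homeodomain factor of limb and craniofacial mesenchyme (ENSG00000116132, chromosome 1, 170631869 to 170708560 of hg19, plus strand), had 1518, 1538 and 1582 normalised counts in dox replicates 1, 2 and 3. Its no dox replicates 1, 2 and 3 had 2082, 2009 and 1880. The groups did not overlap, and the dox values were the closer together (SD 32.4 against 102). The log2 change was -0.36 (SE 0.07, 95% interval -0.53 to -0.19, limma adjusted p = 0.0810), or -22.3%. With the replicate block PRRX1 fell (limma adjusted p = 0.00131), and 9 of 9 block fits called it, with adjusted p from 1.02e-05 to 0.0175. These 9 fits share libraries and are not separate evidence. The lowest adjusted p of PRRX1, and of ZEB1, ZEB2, FAP and THY1 below, came from the block fit without pair 1. Of 16 alternatives without the block DESeq2 alone called PRRX1 (adjusted p from 0.00370 to 0.291). The 3 pairs differed by -0.46, -0.39 and -0.25.

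ZEB1 and ZEB2 are paralogous zinc finger repressors that share E-box targets, and with the block ZEB1 fell while ZEB2 rose. ZEB1 (ENSG00000148516, chromosome 10, 31607424 to 31818742, plus strand), whose upstream sequence above holds both E-box matches, had 1625, 1492 and 1606 normalised counts in dox replicates 1 to 3, against 1747, 1889 and 2018 in no dox. The groups did not overlap, and the highest dox and lowest no dox library, both of replicate 1, were the nearest. The log2 change was -0.26 (SE 0.08, limma adjusted p = 0.231 without and 0.0105 with the block), and the pairs differed by -0.10, -0.34 and -0.33. It was called in 6 of 9 block fits (adjusted p from 2.74e-06 to 0.107). The call was lost from FPKM values (-0.21), without pair 2 (-0.22) and without pair 3 (-0.22). ZEB1-AS1, an antisense gene that overlaps ZEB1, had a mean of 85.9 normalised counts and a log2 change of -0.12. No source here says if reads were counted by strand, so reads of the overlap cannot be assigned.

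ZEB2 (ENSG00000169554, chromosome 2, 145141648 to 145282147, minus strand) had 1761, 1768 and 1907 normalised counts in dox replicates 1 to 3 and 1405, 1428 and 1663 in no dox. All dox libraries were above all no dox libraries, with no dox replicate 3 the nearest. The log2 change was 0.28 (SE 0.09, limma adjusted p = 0.235), a 21.1% higher level. With the block ZEB2 rose (limma adjusted p = 0.00376), as in 9 of 9 block fits (adjusted p from 0.000244 to 0.0422), and 0 of 16 alternatives without the block called it (from 0.163 to 0.563). The log2 difference of ZEB2 and ZEB1 within a library was 0.53 higher in dox (SD over the pairs 0.11, n = 3), and the pairs gave 0.43, 0.65 and 0.53. By exact two-sided permutation of the libraries, which did not keep the pairs, this had p = 0.1, the lowest that 20 assignments allow. The contrast was chosen after the values were seen. Both genes' groups did not overlap and moved in opposite directions, so this p was fixed beforehand and is no separate result.

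SNAI2, the factor also called Slug, varied more between replicate numbers than between groups. SNAI2 (ENSG00000019549, chromosome 8, 49830249 to 49834299, minus strand) had 336, 203 and 231 normalised counts in dox replicates 1 to 3, against 268, 171 and 198 in no dox. Both replicate 1 libraries were the highest of their groups, and the groups overlap. The log2 change was 0.27 (SE 0.23, 95% interval -0.27 to 0.80, limma adjusted p = 0.724), and each dox library was above its partner, by 0.33, 0.25 and 0.22. Without the block the change was 0.05 when dox replicate 1 was left out, 0.12 without no dox replicate 2, 0.42 without dox replicate 2 and 0.45 with no dox replicate 1 left out. With the block the limma adjusted p was 0.0550, and 3 of 9 block fits called it (from 0.0256 to 0.294). Between 98 and 476 reads per library stand behind these values.

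For TWIST1 and TWIST2, closely related basic helix-loop-helix factors of mesoderm and mesenchyme, no difference was detected. TWIST1 (ENSG00000122691, chromosome 7, 19060614 to 19157295, minus strand) had 397, 625 and 519.9 normalised counts in dox replicates 1 to 3 and 482, 573 and 486 in no dox. The dox libraries lay on both sides of the no dox range. Its log2 change of -0.02 (95% interval -0.41 to 0.37, limma adjusted p = 0.981) had no stable sign, being 0.15 without dox replicate 1. TWIST2 (ENSG00000233608, chromosome 2, 239756673 to 239795893, plus strand) had 234, 231 and 240.1 in dox and 205, 229 and 243 in no dox. The 3 dox values lay inside the no dox range, with a log2 change of 0.06 (95% interval -0.20 to 0.33, limma adjusted p = 0.896). The log2 difference of TWIST2 and TWIST1 within a library was 0.08 higher in dox (SD over the pairs 0.33, n = 3). Exact two-sided permutation of the libraries, which did not keep the pairs, gave p = 0.7.

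Of the surface markers of fibroblasts, FAP and THY1 fell with the block. FAP, fibroblast activation protein, is a membrane serine protease of activated stroma (ENSG00000078098, chromosome 2, 163027194 to 163101661, minus strand). It had 2050, 1777 and 1637 normalised counts in dox replicates 1 to 3, against 2371, 2410 and 2489 in no dox. All dox libraries were below all no dox libraries, and the no dox values were the closer together (SD 60.0 against 210.3). Its log2 change of -0.42 (SE 0.09, 95% interval -0.64 to -0.20, limma adjusted p = 0.105), or -25.1%, was the largest of the 10 in size. FAP fell with the block (limma adjusted p = 0.00239) and in 9 of 9 block fits (adjusted p from 5.58e-10 to 0.0280). Of the 16 alternatives without the block DESeq2 alone called it (from 0.0128 to 0.310). The pairs differed unequally, by -0.21, -0.44 and -0.60. In the authors' deposited table FAP was the 1 gene of the 10 with an adjusted p under 0.05 (log2 fold change -0.40, adjusted p = 0.0289), where 2.78% of that table's genes had one. PRRX1 had -0.36 and 0.0504 in the authors' deposited table. The authors' own marks for up and down (up and dn) were 0 there for each of the 10 genes, FAP included.

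THY1, the GPI-anchored glycoprotein CD90 of fibroblasts and mesenchymal stromal cells (ENSG00000154096, chromosome 11, 119288090 to 119295695, minus strand), had 9885, 7665 and 8522 normalised counts in dox replicates 1 to 3. No dox replicates 1 to 3 had 12882, 8815 and 10022. Each dox library was below its same-numbered partner, while the groups overlap because replicate 1 was high and replicate 2 low in both. The log2 change was -0.27 (SE 0.15, limma adjusted p = 0.533), and the pairs differed by -0.38, -0.20 and -0.23. THY1 fell with the block (limma adjusted p = 0.00311) and in 9 of 9 block fits (adjusted p from 5.77e-05 to 0.0284), and 0 of 16 alternatives without it gave a call (from 0.398 to 0.761). Without no dox replicate 1, and without the block, the change was -0.12.

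CDH2 and PDGFRB passed limma neither without nor with the block. CDH2, N-cadherin, is the adhesion molecule that replaces E-cadherin in many mesenchymal cells (ENSG00000170558, chromosome 18, 25530930 to 25757410, minus strand). It had 11763, 9283 and 10148 normalised counts in dox replicates 1 to 3 and 11033, 8769 and 9297 in no dox. Each dox library was slightly above its partner, by 0.09, 0.08 and 0.13, and the groups overlap. The log2 change was 0.10 (SE 0.12, 95% interval -0.18 to 0.38, limma adjusted p = 0.826). Without the block it was 0.01 when dox replicate 1 was left out, 0.03 without no dox replicate 2, 0.18 without dox replicate 2 and 0.20 with no dox replicate 1 left out. With the block the limma adjusted p was 0.0980, and 2 of 9 block fits called it (from 0.0351 to 0.378). PDGFRB, the beta receptor for platelet-derived growth factor and a pericyte and fibroblast marker (ENSG00000113721, chromosome 5, 149493400 to 149535435, minus strand), had 4169, 5521 and 4988 in dox and 4527, 5436 and 5205 in no dox. All no dox values lay inside the dox range, 1 pair was higher and 2 were lower, and the log2 change was -0.05 (95% interval -0.33 to 0.23, limma adjusted p = 0.915).

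**Figure D2:**
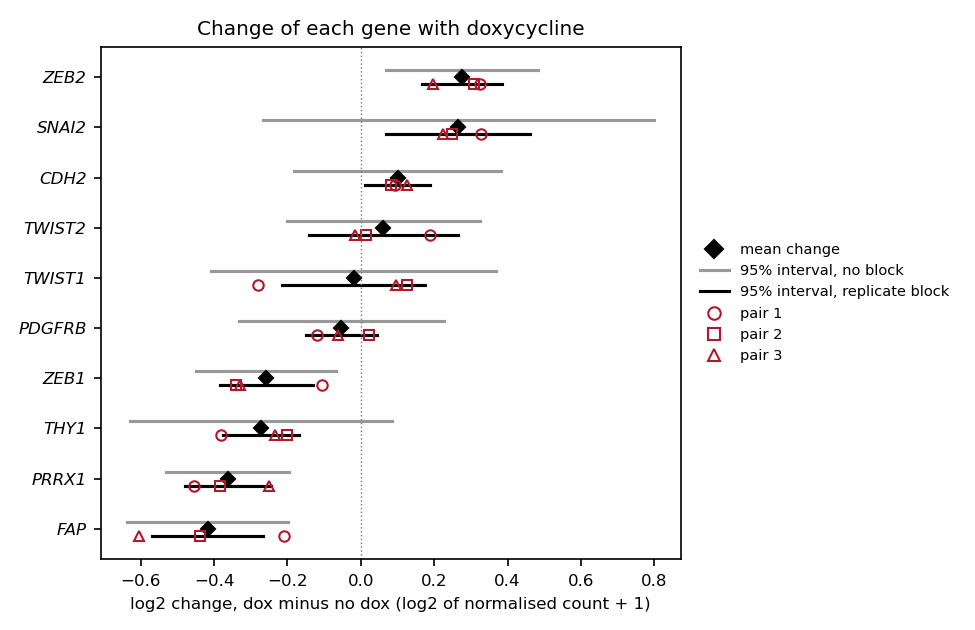
Log2 change of each gene, dox minus no dox (horizontal axis), as the mean (diamond), its 95% interval without the block (grey) and with the replicate block (black), and the 3 pairs of equal replicate number (open marks). The 3 marks lie on 1 side of 0 for 7 genes, and the grey intervals of SNAI2, THY1 and CDH2 span 0 while the black ones do not.

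The 10 genes differed in how far they followed the replicate number. For each gene, deviations from the group mean were averaged over the 2 libraries of each number, and the range over the 3 numbers was taken. This range was 0.69 on the log2 scale for SNAI2, 0.46 for THY1, 0.45 for TWIST1, 0.34 for CDH2 and 0.33 for PDGFRB, each more than the size of its own change between groups. It was 0.04 for PRRX1, 0.10 for ZEB1, 0.13 for FAP and 0.18 for ZEB2, each less than that change. Replicate 1 was high in both groups for SNAI2 (0.42 and 0.36 above the dox and no dox means), THY1 (0.19 and 0.30) and CDH2 (0.18 and 0.19), and low in both for TWIST1 (-0.35 and -0.09) and PDGFRB (-0.22 and -0.16). Replicate 2 deviated the other way in both groups for each of these 5 genes. For PRRX1 the 2 libraries of a number deviated in opposite directions at all 3 numbers, so its pairs do not deviate together. Its lower SE with the block (0.05, against 0.07 without) thus reflects the variance shared over genes and not its own pairs. FAP and ZEB1 also deviated in opposite directions at most numbers, and their SE was lower with the block (0.07 against 0.09, and 0.06 against 0.08). For these genes too the lower SE reflects the variance shared over genes. The low adjusted p-values of PRRX1, FAP and ZEB1 with the block lean on that variance. What equal numbers share is not stated in the labels, and its part in these values was not tested.

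**Figure D3:**
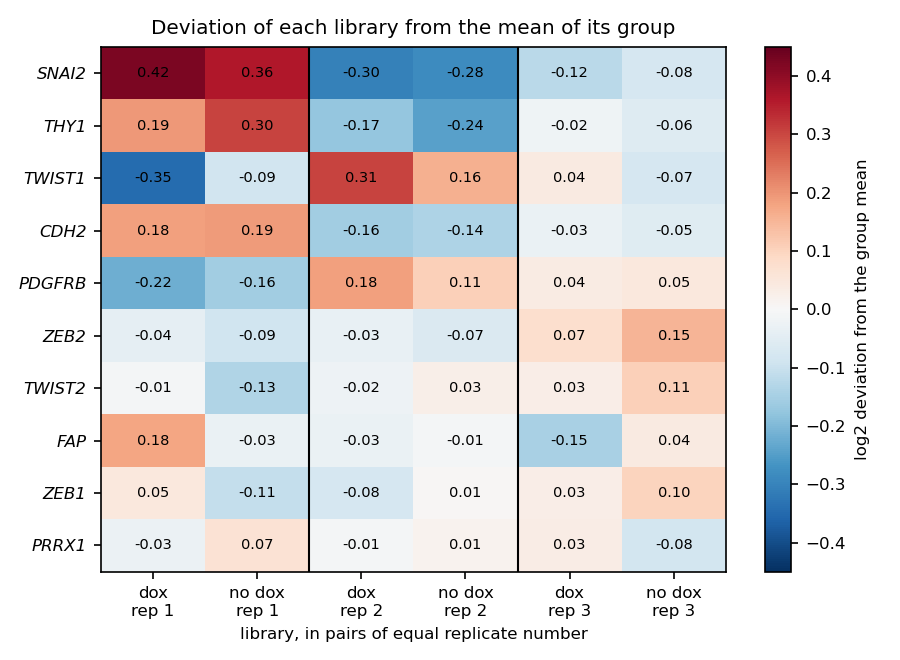
Deviation of each library from its group mean (log2, colour and printed value) for the 10 genes, with dox and no dox libraries of equal number side by side. SNAI2, THY1 and CDH2 are high in both replicate 1 libraries and low in both replicate 2 libraries, TWIST1 and PDGFRB the reverse, and PRRX1 varies little.

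CDH2, THY1 and PDGFRB had the highest levels per gene length. In no dox libraries FPKM was 33.1 ± 3.66 for CDH2, 28.8 ± 5.30 for THY1 and 11.4 ± 1.27 for PDGFRB (SD, n = 3 each). TWIST2 (6.55 ± 0.57), TWIST1 (6.31 ± 0.82), PRRX1 (5.53 ± 0.37) and FAP (5.29 ± 0.15) followed, and SNAI2 (1.68 ± 0.38), ZEB1 (1.07 ± 0.08) and ZEB2 (0.963 ± 0.08) were lowest (SD, n = 3 each). In that order the library ranges overlap between the neighbours CDH2 and THY1, TWIST2 and TWIST1, PRRX1 and FAP, and ZEB1 and ZEB2. The gene width that the authors divided by was 60071 bases for ZEB1, 6.94 times its merged exon length in GENCODE 29, and 1176 bases for TWIST2, 0.63 times that length. Per kilobase of merged exon ZEB1 had 7.43 CPM in no dox libraries, against 2.04 for ZEB2 and 4.10 for TWIST2. CDH2, THY1 and PDGFRB led under both lengths and ZEB2 was lowest under both, while TWIST2, FAP, SNAI2 and ZEB1 changed places.

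**Figure D4:**
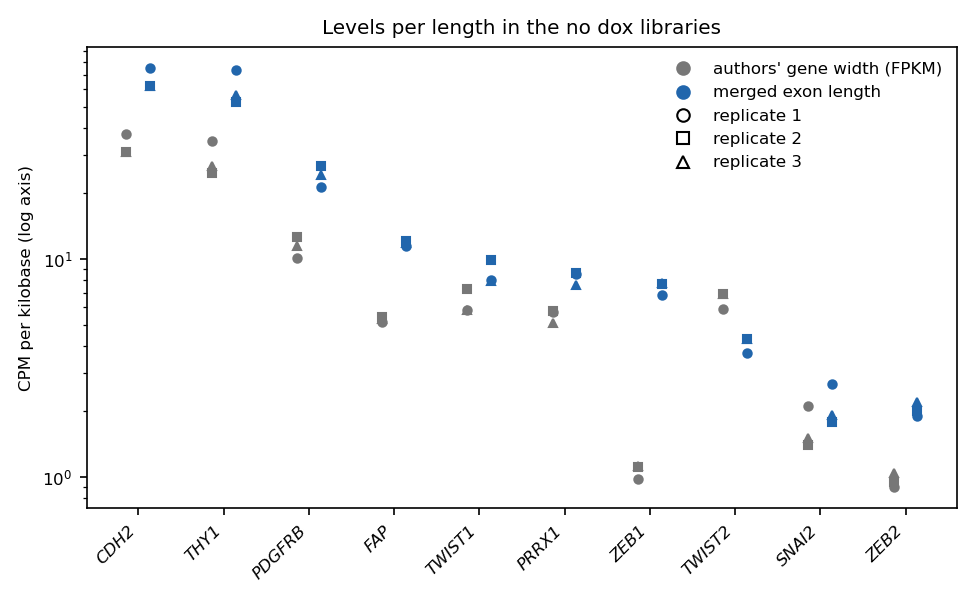
CPM per kilobase (log axis) in the 3 no dox libraries, with marker shape for the replicate, divided by the authors' gene width (grey, FPKM) or by merged exon length (blue). CDH2 and THY1 are highest under both lengths, and the mean of ZEB1 moves from 1.07 to 7.43.

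The genes whose profile over the 6 libraries was most like that of PRRX1, the gene of the 10 with the smallest p, were CNRIP1, RBBP8, EML1, PRPS2 and CHML. Likeness was the root mean square difference of mean-centred log2 values, among 6576 genes at or above the median level. It ran from 0.03 for CNRIP1 to 0.04 for CHML, where the median gene had 0.22. The log2 changes of these 5 genes lay between -0.33 (RBBP8) and -0.30 (PRPS2). Selection by likeness over the same libraries sets these changes near that of PRRX1, so their closeness is no separate result. Of the other 9 genes ZEB1 (0.12) and FAP (0.13) were nearest to PRRX1 and SNAI2 (0.42) was farthest.

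Further genes of the programme were read from 8 lists, in which limma called 0 of 96 tested genes without the block, with 10 at an unadjusted p under 0.05 (against 13.0% of all genes). Without the block edgeR called 0 of them and DESeq2 5 (3.98% of all genes). With the block limma called 28 (22.5% of all genes), edgeR 29 (23.5%) and DESeq2 19 (13.4%). The counts of each list that follow stand beside 12.4% of all genes that fell and 10.2% that rose with the block in limma. Adjusted p-values given in parentheses after a log2 change in what follows are from limma with the block. Of 15 further EMT transcription factors 11 were tested, with a median log2 change of -0.05, and with the block 1 fell and 1 rose. ETS1, a factor of the ETS family, had 3970, 3129 and 3471 normalised counts in dox replicates 1 to 3 and 5694, 4566 and 4970 in no dox. All its dox libraries were below all no dox libraries, and it fell with the block (-0.53, adjusted p = 6.60e-05, and 0.101 without the block). SOX4 rose with the block (0.20, 0.0114). PRRX2 and GSC were listed at 0 FPKM in all libraries.

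Of 25 other mesenchymal markers 20 were tested (median -0.04), and with the block 6 fell and 0 rose, against 12.4% and 10.2% of all genes. COL1A2, COL3A1, COL5A1, LUM and CDH11 were not tested and had at most 0.0581 FPKM (LUM). CDH11 was listed at 0 FPKM in all libraries. The 2 markers with the smallest p were the matrix metalloproteinase MMP2 (-0.38, 0.00315) and the fibronectin receptor subunit ITGA5 (-0.27, 0.00234). Of 20 epithelial genes that EMT factors are known to repress 5 were tested, and the other 15 had at most 0.0502 FPKM. All 5 had higher means in dox (median 0.20, beside -0.00 over all tested genes). Their levels were low, from at most 0.0750 FPKM for LLGL2 to at most 0.559 FPKM for OCLN. With or without the block 0 of the 5 passed limma, edgeR or DESeq2. At an unadjusted limma p under 0.05 there were 0 without the block and 2 with it. The tight junction protein CLDN4 had 20.8, 54.9 and 57.1 normalised counts in dox replicates 1 to 3 and 15.9, 29.9 and 41.0 in no dox, so that its groups overlap (0.57, 0.0809). PATJ, a polarity scaffold, differed by 0.19 (0.0943).

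Signalling genes upstream of the EMT factors moved in both directions with the block. Of 16 TGF-beta pathway genes (median -0.07) 3 rose and 3 fell. SMAD3, a receptor-activated mediator of the pathway, fell (-0.34, 0.000839). Among 10 PDGF pathway genes (median -0.05) 1 rose and 3 fell. The ligand PDGFB rose (0.43, 0.00467) and the ligand PDGFC fell (-0.42, 0.000182).

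Among 11 tested cadherins, catenins and partners of CDH2 (median 0.00) 3 rose and 3 fell with the block, against 22.5% of all genes called in either direction. CDH6, K-cadherin, had 1941, 1984 and 2226 normalised counts in dox replicates 1 to 3, against 2827, 2757 and 2739 in no dox. All dox libraries were below all no dox libraries, and CDH6 fell with the block (-0.44, 0.000561, and 0.0628 without the block). Plakoglobin, JUP, rose (0.21, 0.00649). Of 18 tested partners of TWIST, SNAI and ZEB proteins (median 0.02) 2 rose and 1 fell. The corepressor subunit HDAC1 rose (0.18, 0.0256) and the methyltransferase EZH2 fell (-0.24, 0.0255). Of 11 genes related to FAP and THY1, not all of them of the cell surface (median -0.08), 1 rose and 2 fell. Those that fell were caveolin CAV1 (-0.29, 0.00132) and the ectonucleotidase NT5E (-0.26, 0.00377), which is also in the list of mesenchymal markers.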

How the data were processed

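RNA-seq of 6 libraries, 3 dox and 3 no dox, was analysed, with groups and replicate numbers from the sample titles. Per the submitters' processing notes the build was hg19, and bcl2fastq, Trimmomatic, TopHat and edgeR are named without versions. The authors deposited normalised counts, a depth-equalised signal for 13161 genes. Their FPKM values equal the CPM of the authors' comparison table over a gene width (largest relative difference 1.5e-07). Per the file headers, the deposited table gives a log2 fold change, a likelihood ratio (a score) and a p-value, raw and adjusted. Reads (15094498 to 49882123 per library) were recovered from CPM, since 100% of its values were multiples of what 1 read is worth (tolerance 0.01).

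Values as log2(normalised count + 1) were tested two-sided with limma-trend over 13153 genes that reached 10 normalised counts in 3 or more libraries, with Benjamini-Hochberg adjustment over all of them. Fold changes on this scale understate the change of low genes. Deviations of same-numbered libraries correlated at 0.745, 0.726 and 0.768 across genes, so the numbers were taken to pair the libraries, and values with the replicate number as a block are given beside results. The limma fit left 4 residual degrees of freedom without the block and 2 with it. No pair of libraries of a group differed by as little as sampling noise (chi-square per degree of freedom at least 16.0). Alternatives were other pseudocounts, filters and scalings, FPKM values as log2(FPKM + 0.1), the block, leaving out each library, and edgeR's quasi-likelihood test (67 genes called) and DESeq2 on recovered reads. Block fits on FPKM, TMM and quantile values, and without each pair, were added after the data were seen. Block fits without a pair have fewer libraries and residual degrees of freedom, so their p-values lean most on the variance shared over genes. All 10 genes were named, and in each further list those called without the block and the 2 with the smallest p with it. In the TGF-beta list 1 gene that this rule names is not reported here. These genes and lists were chosen with earlier results of these data known. Merged exon lengths came from GENCODE 29, an annotation of another build, and no coordinate was taken from it. Fits were tested on simulated data whose changes were larger than those of the 10 genes, so the test does not bear on calls of changes this small. Fits ran under R 4.3.3 with DESeq2 1.42.0, edgeR 4.0.16 and limma 3.58.1, tables under Python 3.11.15 and figures with matplotlib 3.10.9.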

Additional observations from a re-analysis of the deposited data

How the results depend on the processing

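The replicate block decided most calls. Members called numbered 0 without it and 5 with it, 6 with edgeR and the block, 5 with DESeq2 and the block, and 2 with DESeq2 alone. With the block they numbered 5 from FPKM, 6 after TMM scaling and 6 after quantile normalisation, and 4 to 6 without each pair. None was called without each library in turn (0 in all 6 fits). Genes called over the whole table numbered 71 without the block, 2965 with the replicate block, 3058 with edgeR and the block, 518 with DESeq2, 1745 with DESeq2 and the block and 31 from FPKM. With the block they numbered 2081 from FPKM, 2978 after TMM scaling, 2918 after quantile normalisation and 1414, 1779 and 3835 without pair 2, 3 and 1. Leaving out each library gave 3 to 21. The members' median change ran from -0.16 (without dox replicate 2) to 0.031 (without dox replicate 1) when 1 library was left out. PRRX1, FAP, SNAI2, ZEB1, ZEB2, THY1 and CDH2 kept their sign in all 25 alternatives, but without each library and without the block SNAI2 ran from 0.05 to 0.45 and CDH2 from 0.01 to 0.20. SNAI2 passed with the block in edgeR (adjusted p = 0.0430), from FPKM (0.0256) and after TMM scaling (0.0483), and CDH2 after quantile normalisation (0.0351) and without pair 1 (0.0434). TWIST1 changed sign from FPKM (0.0084, also with the block), in edgeR (0.0076) and in DESeq2 (0.0045), and ran from -0.17 to 0.15 without each library and from -0.09 to 0.11 with the block and without each pair. TWIST2 ran from -0.0054 to 0.12 without each library and from -0.0014 to 0.10 without each pair, and PDGFRB from -0.14 to 0.058 without each library. The cause of these differences was not tested. Among the members SNAI2 and TWIST2 had the lowest read numbers, with as few as 98 and 122 reads in a library. The part of depth in their values was not tested.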
